A study of Mus musculus with 6 samples.

Results

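Kupffer cell and macrophage markers were followed across 6 mouse livers. The set holds 36 genes that are used to recognise the resident macrophages of the liver, macrophages in general and the monocytes that replace them. Members were taken as the rows of the array table annotated with 1 of these 36 gene symbols. This gave 1 row each for 35 genes, out of 19505 genes measured in all. Cd68, a lysosomal glycoprotein of macrophages, is the member without a value here.

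Total liver RNA came from male C57BL/6 mice aged 8 weeks, 3 wild type (WT) and 3 with the genotype HMGB2-KO, labelled as a knockout of the DNA-bending chromatin protein HMGB2. The labels name no treatment, surgery or injury for any of the 6 animals, give each mouse a number of its own, and do not say how the Hmgb2 allele was made or in which cells it is inactive. Each liver was read on 1 Clariom S mouse array, a single-colour array that measures a gene through several short probes. The arrays were made to find genes whose expression goes with Hmgb2, within a study of liver regeneration, but these livers were not labelled as regenerating.

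Kupffer cells sit in the liver sinusoids, where they clear particles, old red cells and bacteria from portal blood. They depend on signalling through the receptor CSF1R and on the transcription factor PU.1, and in the healthy adult liver they largely maintain themselves, while monocytes from blood replace them when they are lost. In RNA from whole liver, fewer macrophages and less RNA of a gene per macrophage cannot be told apart.

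Every value below is a log2 difference from a baseline that the deposited table sets separately for each gene, after the median of the array was subtracted. A gene's values can therefore be compared between livers. Values of different genes cannot be ranked by abundance, and the presence of macrophage RNA cannot be read from these numbers. Fold changes are HMGB2-KO minus WT on that log2 scale, and n is 3 livers per genotype throughout. The test was limma's moderated test over all 19505 genes with Benjamini-Hochberg adjustment and a threshold of 0.05. With 3 livers against 3, an exact two-sided permutation test over livers cannot go below p = 0.1.

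The knocked-out gene followed its labels. Hmgb2 was at 0.47, 0.36 and 0.42 in WT replicates 1 to 3 and at -0.66, -0.33 and -0.43 in HMGB2-KO replicates 1 to 3, so that the genotypes did not overlap. The fold change of Hmgb2 was -0.89 (SE 0.13), with an unadjusted p of 0.000183 in limma. Its adjusted p of 0.645 did not pass the threshold either. The array of WT 2 stood apart before centring, with a median of 0.26 over all rows against -0.05 to 0.01 on the other arrays. Counts below were therefore also taken without it.

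No macrophage marker passed the adjusted threshold, and neither did any other gene (0 of 19505 genes, 0%, with 717 genes at an unadjusted p under 0.05 in limma, and 0 and 837 in the per-gene test without moderation). The smallest adjusted p of a member was 0.994. Of the 35 measured, 27 had a fold change above 0 (77.1%), where 49.5% of all genes did, and 8 had one below 0 (22.9%, background 50.5%). The median of the members was 0.15 and that of all genes -0.00. Without WT 2 the count was again 27, with a median of 0.15. The fold changes ran from -0.39 for Cx3cr1 to 0.41 for Cybb, a 1.33-fold difference, with standard errors of 0.12 to 0.25. In 7 members all 3 HMGB2-KO livers lay above all 3 WT livers, which is 20% of them against a background of 4.32% of all genes. The reverse held in 1 member, 2.86% against a background of 5.35%. Without WT 2 these counts were 10 and 4, with backgrounds of 8.3% and 9.62%. An earlier look at these arrays had already shown a smaller list of such markers on the higher side, so these counts are no independent support for it.

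**Figure D1:**
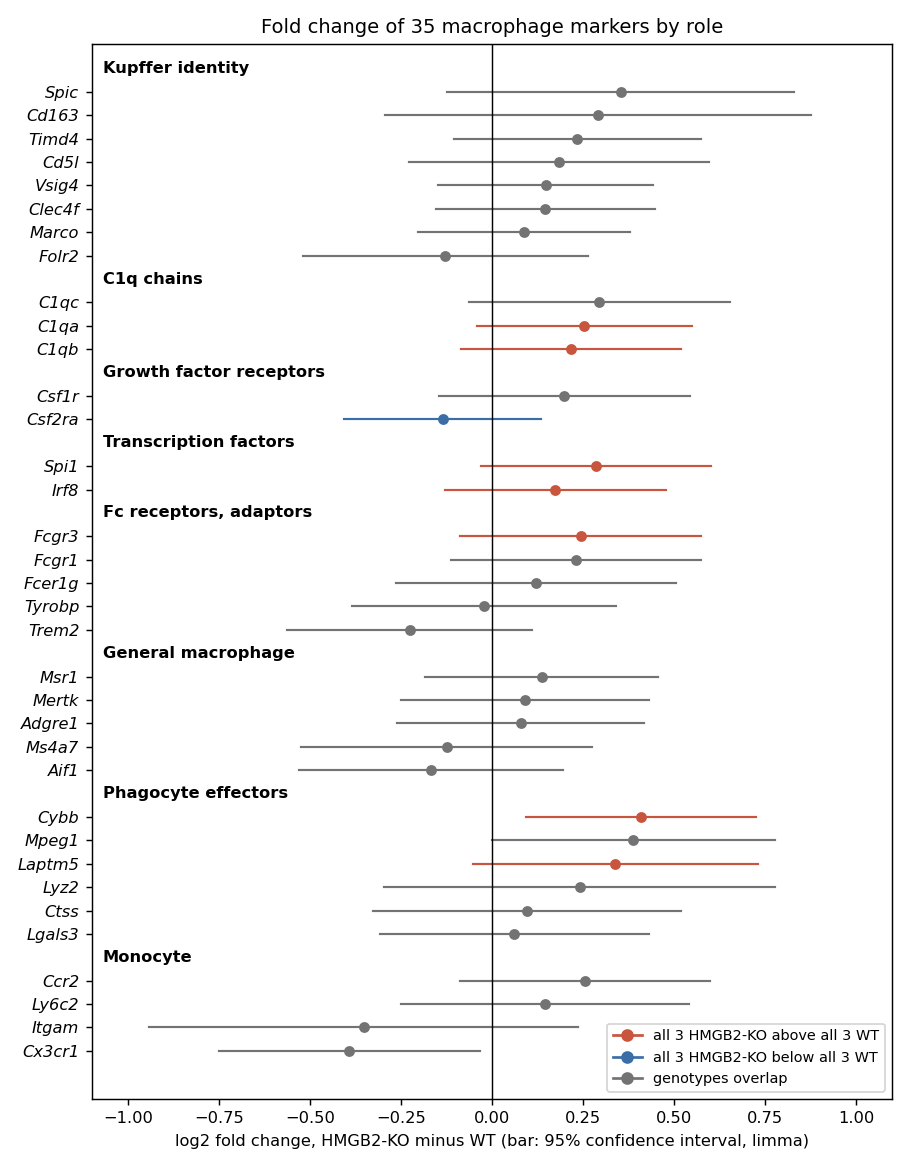
Each point is the log2 fold change of 1 gene, HMGB2-KO minus WT, with its 95% confidence interval from limma as a bar, and the 35 genes are grouped by role. Most points lie to the right of 0, red marks the 7 genes whose HMGB2-KO livers all lie above the WT livers, blue marks Csf2ra, and only the intervals of Cybb and Cx3cr1 leave out 0.

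Spi1 and Irf8, the members grouped here as transcription factors, lay higher in all HMGB2-KO livers than in all WT livers. Spic, a further transcription factor, is described with the Kupffer cell genes below, and its genotypes overlapped. Spi1 encodes PU.1, the ETS factor that macrophages cannot form without. It was at -0.03, 0.03 and 0.19 in WT 1 to 3 and at 0.33, 0.20 and 0.51 in HMGB2-KO 1 to 3. The genotypes were separated by the narrow step between WT 3 and HMGB2-KO 2. The fold change was 0.29 (SE 0.14, 95% confidence interval -0.03 to 0.60), with an unadjusted p of 0.0702 and an adjusted p of 0.994 in limma. Irf8, a partner of PU.1 in the monocyte and macrophage lineage, was at -0.02, -0.32 and -0.06 in WT and at 0.04, -0.01 and 0.09 in HMGB2-KO. The groups again did not overlap, but the distance came mostly from WT 2, and the fold change of 0.17 (SE 0.13) was 0.08 without that liver. Other regulators of macrophages gave no common direction. Of 11 measured, 6 were above 0 and 0 passed, with a median of 0.02. The fold changes ran from -0.70 (SE 0.62) for Id3 to 0.53 (SE 0.28) for Pparg. Without WT 2 these genes were at -1.35 and 0.26. Runx1 was at -0.20 (SE 0.13), Maf at 0.25 (SE 0.18), or 0.12 without WT 2, and the liver X receptor Nr1h3 at -0.05 (SE 0.15).

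Since PU.1 and IRF8 bind the promoters of many macrophage genes, the letters of their motifs were looked up in the RefSeq promoter windows of assembly GRCm38.p6, 250 bases before to 50 after each annotated start. Windows were matched for 29 of the 35 genes, and Adgre1, Csf1r, C1qa, Tyrobp, Msr1 and Spi1 had none. The letters GAGGAAG, a PU.1 site, stood on either strand in 11 of the 29 (37.9%), against 15.4% of the 27025 genes with a window. The wider IRF motif, a pair of GAAA sites on 1 strand with any 2 bases between them, stood in 3 of 29 (10.3%), against 3.99%. Letters of AP-1 sites (TGANTCA, N being any base) were also looked up and stood in 4 of 29 (13.8%), against 8.97%. Those of C/EBP sites (TTGCNNAA) stood in 2 of 29 (6.9%), against 12.2%. The median fold change was 0.15 over the 11 genes with the PU.1 letters and 0.16 over the 18 genes without them. A match is a description of the sequence and not a measured binding site. The stretches before the start are shown for 3 members whose genotypes did not overlap and which hold the PU.1 letters in capitals, namely Laptm5 (chr4:130913066-130913315, plus strand), Fcgr3 (chr1:171059404-171059653, minus strand) and Csf2ra (chr19:61228419-61228668, minus strand). For Cybb (chrX:9469325-9469574, minus strand), the member with the smallest p, capitals mark the 3 matches to the IRF motif. Each is read 5′ to 3′ towards the start of its gene.
Laptm5: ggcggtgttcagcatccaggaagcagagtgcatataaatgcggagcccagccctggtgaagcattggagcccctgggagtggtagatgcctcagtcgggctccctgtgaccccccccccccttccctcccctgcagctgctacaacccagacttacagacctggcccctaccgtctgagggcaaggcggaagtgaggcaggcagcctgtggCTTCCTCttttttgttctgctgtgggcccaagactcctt
Fcgr3: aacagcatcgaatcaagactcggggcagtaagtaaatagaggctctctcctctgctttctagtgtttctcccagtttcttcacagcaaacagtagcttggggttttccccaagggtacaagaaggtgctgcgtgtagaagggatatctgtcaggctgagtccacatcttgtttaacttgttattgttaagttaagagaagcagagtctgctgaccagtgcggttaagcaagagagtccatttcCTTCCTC
Csf2ra: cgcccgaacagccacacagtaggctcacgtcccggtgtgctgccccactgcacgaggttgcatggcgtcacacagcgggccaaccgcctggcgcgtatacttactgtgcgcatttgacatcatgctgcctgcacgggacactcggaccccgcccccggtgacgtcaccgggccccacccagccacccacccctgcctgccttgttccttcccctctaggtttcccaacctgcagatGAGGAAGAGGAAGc
Cybb: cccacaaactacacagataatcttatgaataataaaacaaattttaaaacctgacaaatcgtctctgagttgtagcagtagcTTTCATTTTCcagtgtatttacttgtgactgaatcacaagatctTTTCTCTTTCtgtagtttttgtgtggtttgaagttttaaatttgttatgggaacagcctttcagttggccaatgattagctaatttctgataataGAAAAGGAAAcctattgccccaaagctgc
The PU.1 letters lay close to the start in Fcgr3 and Csf2ra, beginning 7 and 14 bases before it, and 39 bases before it in Laptm5. Csf2ra holds them a second time, overlapping the first match by its last base, and is also the member in which the HMGB2-KO livers lay lower.

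Receptors for macrophage growth factors lay on both sides of WT. Csf1r, the receptor that keeps Kupffer cells alive, was at 0.44, 0.52 and 0.46 in WT and at 0.87, 0.41 and 0.73 in HMGB2-KO. HMGB2-KO 1 and 3 lay above the WT range and HMGB2-KO 2 below it, and the fold change of 0.20 (SE 0.15) was 0.10 without HMGB2-KO 1 and 0.33 without HMGB2-KO 2. Csf2ra, the alpha chain of the receptor for GM-CSF, was at 0.18, 0.10 and 0.12 in WT and at 0.09, -0.09 and -0.01 in HMGB2-KO. It is the single member whose HMGB2-KO values all lay below WT, by a fold change of -0.14 (SE 0.12, 95% confidence interval -0.41 to 0.13). Under quantile normalization its groups overlapped, with a fold change of -0.12.

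Ligands of these and of other myeloid receptors were read as 1 list. Of 9 ligands measured, 5 were above 0, 0 passed and the median was 0.04. In 1 of them, Csf3, all HMGB2-KO livers lay below all WT livers (background 5.35%), with a fold change of -0.17 (SE 0.12). Csf1 was at 0.04 (SE 0.21) and Il34, the other ligand of CSF1R, at 0.10 (SE 0.20). Csf2, which encodes GM-CSF, was at -0.04 (SE 0.12). Of the ligands for the monocyte receptors below, Ccl2 was at -0.01 (SE 0.12), Ccl7 at 0.06 (SE 0.15) and Cx3cl1 at 0.10 (SE 0.14). A list of partner chains, adaptors and related or other myeloid receptors, 8 of them measured, had 5 above 0 and a median of 0.08. In it Csf2rb, the signalling chain of the GM-CSF receptor, was at 0.09 (SE 0.13).

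**Figure D2:**
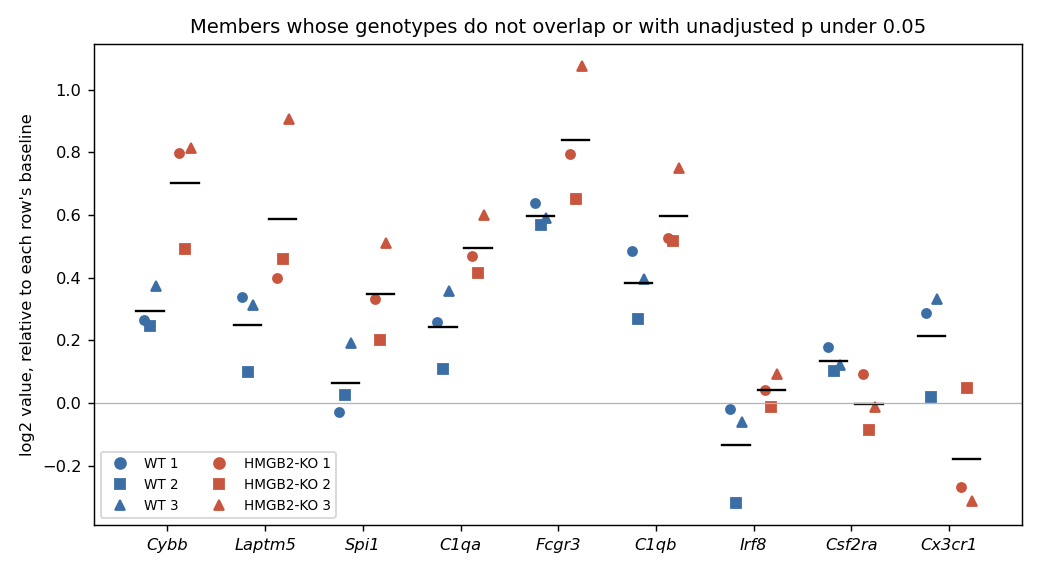
Points are the log2 values of each liver for 9 genes, blue for WT and red for HMGB2-KO, with a shape for each replicate number and a black line for the mean of 3 livers. In the 7 genes on the left all red points lie above all blue ones, in Csf2ra all lie below, and in Cx3cr1 the groups overlap through HMGB2-KO 2 and WT 2.

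Effector genes of phagocytes had the largest median of the 8 roles, at 0.29, with 6 of 6 measured members above 0. Cybb encodes gp91phox, the catalytic chain of the oxidase that makes superoxide in phagocytes. It was at 0.27, 0.25 and 0.37 in WT and at 0.80, 0.49 and 0.82 in HMGB2-KO. The lowest HMGB2-KO liver thus lay above the highest WT liver. The fold change was 0.41 (SE 0.14, 95% confidence interval 0.09 to 0.72), with an unadjusted p of 0.0180 and an adjusted p of 0.994 in limma. An unadjusted p under 0.05 on the higher side was found in this 1 member (2.86%) and in 1.06% of all genes. Without 1 liver the fold change of Cybb lay between 0.35 and 0.51. It was 0.29 with the values as deposited, where its groups overlapped.

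Partners of gp91phox were on the same side in 3 of 4 cases, none past the test. Cyba, the p22phox chain that holds gp91phox in the membrane, was at -0.12, -0.18 and 0.07 in WT and at 0.36, -0.11 and 0.44 in HMGB2-KO, a fold change of 0.31 (SE 0.17). Its HMGB2-KO 2 value lay in the WT range. Rac2, the small GTPase of the complex, was at 0.30 (SE 0.16), or 0.17 without WT 2, and Ncf1, the p47phox organiser, at 0.13 (SE 0.12). Ncf4, the p40phox chain, was at -0.20 (SE 0.16).

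Laptm5, a lysosomal membrane protein of blood cells, was at 0.34, 0.10 and 0.31 in WT and at 0.40, 0.46 and 0.91 in HMGB2-KO. The groups did not overlap, and HMGB2-KO 3 stood well above the other 5 livers. The fold change of 0.34 (SE 0.17) was 0.18 without that liver. Mpeg1, the pore-forming perforin of macrophages, was at -0.73, -0.44 and -0.19 in WT and at 0.01, -0.22 and 0.02 in HMGB2-KO. Its groups overlapped only through WT 3 and HMGB2-KO 2, and the fold change of 0.39 (SE 0.17, 95% confidence interval -0.00 to 0.78) was 0.25 without WT 1. Lysozyme M, Lyz2, varied more within the HMGB2-KO group than between genotypes, at 0.70, 0.02 and 0.82 there and at 0.02, 0.40 and 0.40 in WT. Its fold change of 0.24 (SE 0.23) was 0.08 without HMGB2-KO 3 and 0.49 without HMGB2-KO 2, and Lyz2 has a near-identical neighbour, Lyz1, whose RNA the probes may also read. The cysteine protease Ctss was at 0.10 (SE 0.18) and the galectin Lgals3 at 0.06 (SE 0.16).

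The 3 genes of complement C1q, the recognition molecule of the classical pathway, ordered the livers in much the same way. Their chains assemble together and the genes lie side by side on mouse chromosome 4 with no other annotated gene between them, in the order C1qb, C1qc, C1qa. C1qa was at 0.26, 0.11 and 0.36 in WT and at 0.47, 0.41 and 0.60 in HMGB2-KO. C1qb was at 0.48, 0.27 and 0.40 in WT and at 0.53, 0.52 and 0.75 in HMGB2-KO. C1qc was at 0.50, 0.15 and 0.57 in WT and at 0.54, 0.76 and 0.80 in HMGB2-KO. In all 3 genes WT 2 was the lowest liver and HMGB2-KO 3 the highest, and the genotypes overlapped only in C1qc, through HMGB2-KO 1. The fold changes were 0.25 (SE 0.13) for C1qa, 0.22 (SE 0.13) for C1qb and 0.29 (SE 0.15) for C1qc, with unadjusted p of 0.0835, 0.137 and 0.0950 in limma. Without WT 2, the array that stood apart, they were 0.19, 0.16 and 0.17. C1qb was at 0.14 without HMGB2-KO 3.

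Genes grouped here as Kupffer cell identity lay higher in 7 of 8 cases, with a median of 0.17, and their groups overlapped in all 8. Not all of these genes are confined to Kupffer cells, as described below for Spic and Folr2. Clec4f, a galactose-binding lectin found in mouse Kupffer cells, was at 0.63, 0.46 and 0.54 in WT and at 0.53, 0.80 and 0.73 in HMGB2-KO. Its fold change of 0.15 (SE 0.13) was 0.09 without HMGB2-KO 2 and 0.23 without HMGB2-KO 1. Vsig4, the complement receptor that captures bacteria from blood, was at 0.68, 0.85 and 0.76 in WT and at 0.85, 0.82 and 1.05 in HMGB2-KO. Its fold change was 0.15 (SE 0.13), against SDs within a genotype of 0.09 (WT) and 0.13 (HMGB2-KO), and was 0.07 without HMGB2-KO 3. Timd4, a receptor for dying cells that marks Kupffer cells of embryonic origin, was at 0.25, 0.02 and 0.10 in WT and at 0.39, 0.14 and 0.54 in HMGB2-KO. Its fold change of 0.23 (SE 0.15) was 0.14 without HMGB2-KO 3. Cd5l, a secreted survival factor of macrophages, was at 0.18 (SE 0.18) and at 0.06 without WT 2. Marco, a scavenger receptor for bacteria, was at 0.09 (SE 0.13).

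Spic and Cd163 had a pattern across livers in common. Spic encodes the ETS factor of macrophages that recycle iron from red cells, and Cd163 the receptor that takes up haemoglobin bound to haptoglobin. Spic was at -0.01, 0.62 and -0.11 in WT and at 0.38, 0.64 and 0.55 in HMGB2-KO. Cd163 was at 0.26, 0.69 and -0.12 in WT and at 0.56, 0.93 and 0.21 in HMGB2-KO. For both, the replicates numbered 2 were the highest liver of their genotype and WT 3 was the lowest of all. The fold changes were 0.35 (SE 0.20) and 0.29 (SE 0.25), or 0.58 and 0.50 without WT 2, and 0.21 and 0.09 without WT 3. Beside them stood, among the further macrophage genes below, Hmox1 at 0.12 (SE 0.24) and the iron exporter Slc40a1 at -0.12 (SE 0.14). Folr2, a folate receptor of resident macrophages, was the exception among the 8, at -0.13 (SE 0.17).

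Receptors for antibodies and their adaptors lay higher in 3 of 5 cases, with a median of 0.12. Fcgr3, the low-affinity Fc gamma receptor III, was at 0.64, 0.57 and 0.59 in WT and at 0.80, 0.65 and 1.08 in HMGB2-KO. The WT livers were close together, HMGB2-KO 2 lay just above them, and the fold change of 0.24 (SE 0.14) was 0.13 without HMGB2-KO 3. Fcgr1, the high-affinity receptor, was at 0.23 (SE 0.15), and Fcer1g, the signalling chain that both need, at 0.12 (SE 0.17). The Fc gamma receptors are related in sequence, so probes may read more than 1 of them. The inhibitory receptor Fcgr2b was at -0.09 (SE 0.16) and the activating Fcgr4 at 0.09 (SE 0.11). Trem2, a lipid-sensing receptor of macrophages, was at 0.35, -0.10 and 0.10 in WT and at -0.15, -0.06 and -0.11 in HMGB2-KO. Its fold change was -0.23 (SE 0.14), and -0.11 without WT 1, the highest liver. Tyrobp, which encodes the adaptor DAP12 that TREM2 signals through, was at -0.02 (SE 0.16).

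Markers shared by most macrophages lay near 0. Of 5 genes 3 were above it, with a median of 0.08. Msr1, scavenger receptor A, was at 0.37, 0.23 and 0.32 in WT and at 0.23, 0.49 and 0.60 in HMGB2-KO, a fold change of 0.14 (SE 0.14), or 0.06 without HMGB2-KO 3. Adgre1, which encodes the classical surface antigen of mouse macrophages, was at 0.24, 0.30 and 0.52 in WT and at 0.51, 0.22 and 0.55 in HMGB2-KO, a fold change of 0.08 (SE 0.15), or 0.02 without HMGB2-KO 3. The 95% confidence interval of Adgre1, -0.26 to 0.42, includes differences of either sign. Mertk, the receptor for dying cells, was at 0.09 (SE 0.15), with its ligands Gas6 at -0.11 (SE 0.21) and Pros1 at 0.15 (SE 0.12). Aif1, the actin-binding protein IBA1, was at 0.03, 0.29 and 0.36 in WT and at 0.06, -0.14 and 0.26 in HMGB2-KO, a fold change of -0.17 (SE 0.16), or -0.07 without HMGB2-KO 2. Ms4a7 was at -0.13 (SE 0.17), and HMGB2-KO 3, the highest liver for many members, was its lowest.

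Monocyte genes split, with 2 of 4 above 0 and a median of -0.10. Ccr2, the chemokine receptor that brings monocytes out of bone marrow, was at -0.12, -0.20 and 0.08 in WT and at 0.38, 0.15 and 0.01 in HMGB2-KO. Its fold change of 0.26 (SE 0.15) was 0.15 without HMGB2-KO 1. Ly6c2, a surface marker of inflammatory monocytes with a near-identical copy in Ly6c1, was at 0.15 (SE 0.17). Cx3cr1, the fractalkine receptor of patrolling monocytes and of capsular macrophages, was at 0.29, 0.02 and 0.33 in WT and at -0.27, 0.05 and -0.31 in HMGB2-KO. HMGB2-KO 1 and 3 lay below all WT livers, while HMGB2-KO 2 lay just above WT 2. The fold change of Cx3cr1 was -0.39 (SE 0.15, 95% confidence interval -0.75 to -0.03), with an unadjusted p of 0.0356 and an adjusted p of 0.994 in limma. On the lower side an unadjusted p under 0.05 was found in this 1 member (2.86%) and in 2.61% of all genes. Itgam, the CD11b integrin chain, was at 0.17, -0.29 and 0.24 in WT and at -0.82, -0.20 and 0.08 in HMGB2-KO. Most of its fold change of -0.35 (SE 0.25) came from HMGB2-KO 1, without which it was -0.10.

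**Figure D3:**
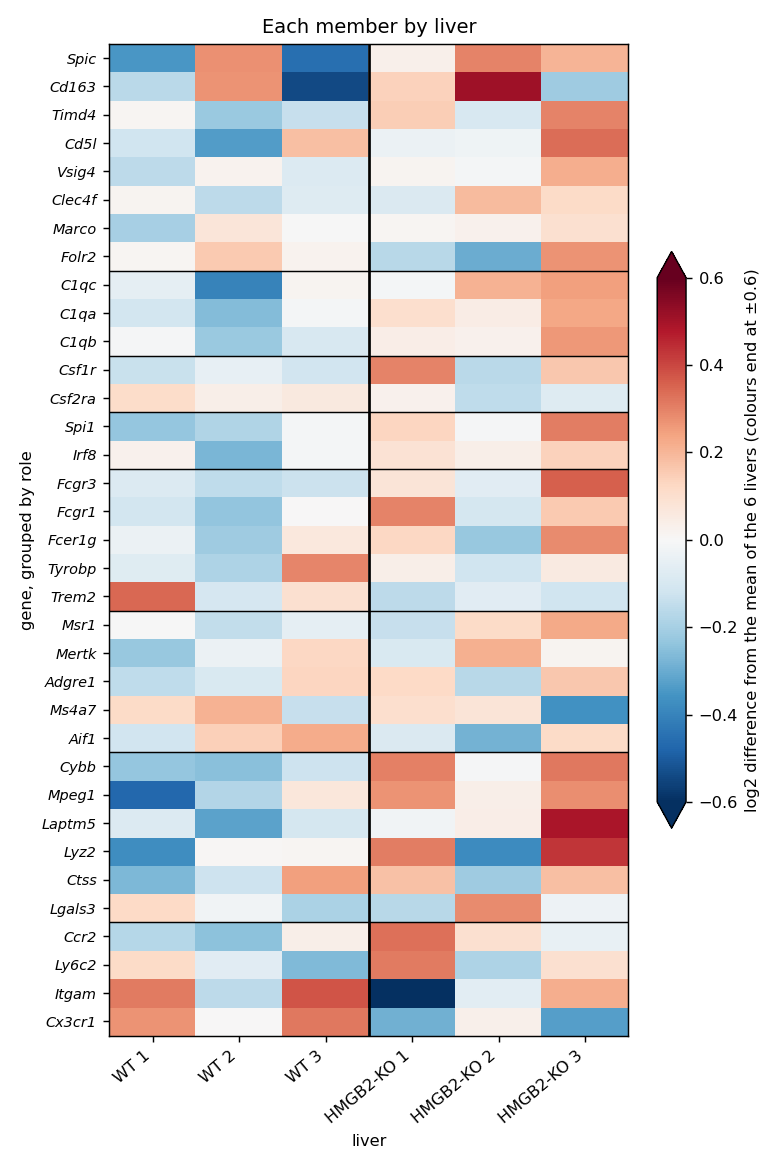
Each cell is the log2 difference of 1 liver from the mean of the 6 livers for that gene, red above and blue below, with the colour scale ending at 0.6 either way. Rows are the 35 genes in their role groups and columns the 6 livers. HMGB2-KO 3 is red in most rows, WT 2 is blue in most rows of the C1q, Fc receptor and effector groups, and HMGB2-KO 2 is mixed.

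Liver by liver, the markers did not follow genotype evenly. The median over the 35 genes was 0.25, 0.15 and 0.32 in WT 1 to 3 and 0.40, 0.23 and 0.51 in HMGB2-KO 1 to 3. HMGB2-KO 2 thus lay within the WT range, and the genotypes overlapped. HMGB2-KO 3 was the highest of the 6 livers in 18 members (51.4%), against 17.6% of all genes. WT 2 was the lowest in 14 members (40%), against 22.3% of all genes. HMGB2-KO 3 lay above all WT livers in 21 members (60%, background 25%), HMGB2-KO 1 in 15 (42.9%, background 21.6%) and HMGB2-KO 2 also in 15 (42.9%, background 23.1%). The shares of members that were highest of all livers in HMGB2-KO 1 or in HMGB2-KO 2 lay near those of all genes. The 4 genes Csf1r, Ccr2, Fcgr1 and Ly6c2 were highest of all livers in HMGB2-KO 1 (11.4%, background 14.3%). The 5 genes Clec4f, Cd163, Mertk, Spic and Lgals3 were highest in HMGB2-KO 2 (14.3%, background 15.4%). Below all WT livers lay 5 members in HMGB2-KO 1, 7 in HMGB2-KO 2 and 4 in HMGB2-KO 3 (14.3%, 20% and 11.4%, with backgrounds of 25.4%, 24.2% and 23.7%).

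Centring bears on these values through the array of WT 2. With the values as deposited, the median fold change of all genes lay at -0.12 and that of the members at 0.03. Centring shifts the fold change of every gene by the same amount. The distance of 0.15 between these medians is therefore the same with or without centring by construction. The members' median in WT 2 was then 0.41, above WT 1 and WT 3 at 0.26 and 0.27 and above HMGB2-KO 1 and 2 at 0.36 and 0.18. There, 22 members were above 0 (23% of all genes were), and 2 of the 7 genes without overlap kept it, C1qa and Laptm5, with 0.795% of all genes wholly above WT. Under quantile normalization 4 of the 7 did, C1qa, Laptm5, Cybb and Irf8, against 4.98% of all genes.

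Further macrophage genes outside the 36 were taken from a list of 21, of which 19 were measured. Of these, 15 were above 0 and 0 passed, with a median of 0.17, and in 5 the HMGB2-KO livers all lay above WT (background 4.32%). Siglec1, the sialic acid receptor CD169, was at 0.12, 0.17 and 0.03 in WT and at 0.47, 0.45 and 0.30 in HMGB2-KO, a fold change of 0.30 (SE 0.12). Slc11a1, the metal transporter of phagosomes, was at 0.28, 0.15 and 0.22 in WT and at 0.46, 0.50 and 0.52 in HMGB2-KO, a fold change of 0.28 (SE 0.11). Cfp, the complement factor properdin, was at 0.30, 0.15 and 0.29 in WT and at 0.62, 0.40 and 0.56 in HMGB2-KO, a fold change of 0.28 (SE 0.12). Without WT 2 the fold changes of Siglec1, Slc11a1 and Cfp were 0.33, 0.25 and 0.24. The mannose receptor Mrc1, which sinusoidal endothelium also expresses, was at 0.25 (SE 0.12), and Sirpa at 0.23 (SE 0.15). Of the 15 genes above 0, Lpl owed its 2.11 (SE 1.52) to WT 2 and was at 0.02 without it. Cytokines and chemokines made by macrophages had 5 of 11 above 0, 0 past the test and a median of -0.04, with Il6 at -0.29 (SE 0.18), Ccl5 at 0.28 (SE 0.17) and Tnf at -0.10 (SE 0.15).

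**Figure D4:**
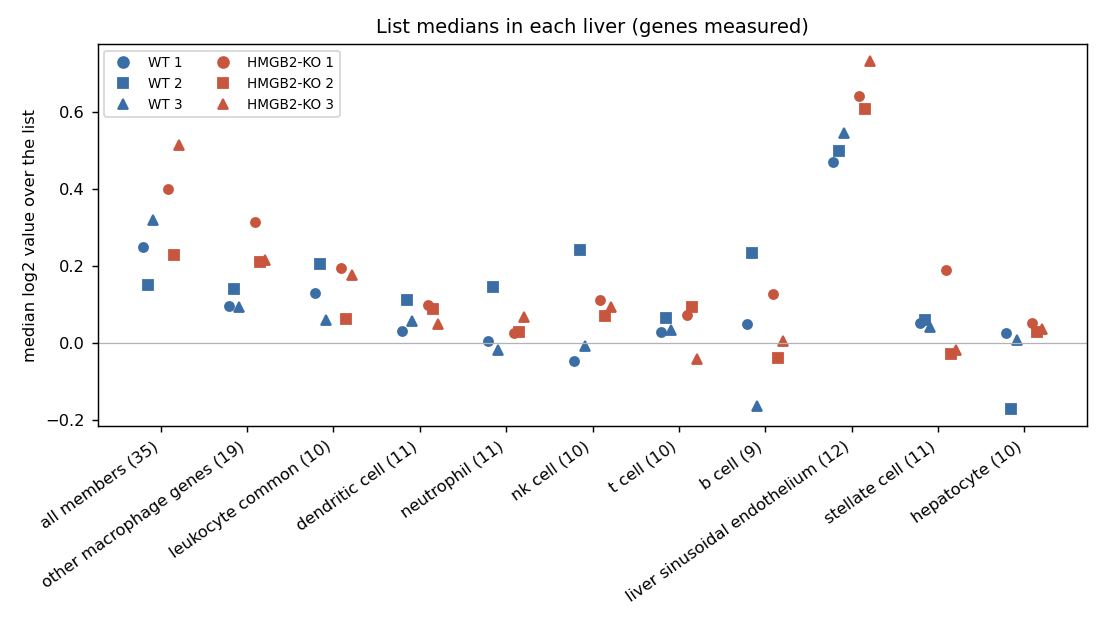
Points are the median log2 value over a gene list in each liver, blue for WT and red for HMGB2-KO, with the number of genes measured in brackets. The genotypes do not overlap in the lists of further macrophage genes, sinusoidal endothelium and hepatocytes, and they overlap in the 35 members and in the leukocyte, dendritic cell, neutrophil, NK cell, T cell, B cell and stellate cell lists.

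Other cell types of the liver were read beside the macrophage genes. Genes common to all leukocytes had 7 of 10 above 0 and a median of 0.05, with Ptprc, the common leukocyte antigen CD45, at 0.00 (SE 0.15). Their list medians by liver ran from 0.06 to 0.21 in WT and from 0.06 to 0.19 in HMGB2-KO. The median fold changes were 0.07 for 10 T cell genes, 0.05 for 9 B cell genes, 0.04 for 10 NK cell genes, 0.01 for 11 neutrophil genes and 0.06 for 11 dendritic cell genes, and 0 genes of these lists passed. In each of these lists 6 or 7 genes were above 0. Itgam is also expressed by neutrophils, whose list had 6 of 11 genes above 0. Hepatocyte genes had 9 of 10 above 0 and a median of 0.09, with list medians of 0.02, -0.17 and 0.01 in WT 1 to 3 and of 0.05, 0.03 and 0.04 in HMGB2-KO 1 to 3, narrowly without overlap. Without WT 2, their lowest liver, the fold changes lay on both sides of 0, from -0.06 (Fgb) to 0.35 (Tat). Alb was then at 0.01, Apoa1 at 0.03 and Ttr at -0.01. With the values as deposited the median fold change of the hepatocyte genes was -0.03.

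Sinusoidal endothelial genes also lay higher in HMGB2-KO livers after centring, none past the test. Of 12 genes 9 were above 0, with a median of 0.09, and the list median was 0.47, 0.50 and 0.55 in WT 1 to 3 and 0.64, 0.61 and 0.73 in HMGB2-KO 1 to 3, without overlap. With the values as deposited the median fold change of the endothelial genes was -0.02, where that of all genes was -0.12. Pecam1, an adhesion molecule of endothelium and of some leukocytes, was at 0.25, 0.05 and -0.13 in WT and at 0.59, 0.58 and 0.63 in HMGB2-KO, a fold change of 0.55 (SE 0.14). Oit3 was at 0.37 (SE 0.15) and Lyve1 at 0.63 (SE 0.29), while the endothelial genes Clec4g and Kdr were at -0.03 (SE 0.15) and -0.01 (SE 0.14). Stellate cell genes had 8 of 11 above 0 with a median of 0.04, and overlapping list medians. Cholangiocyte genes had 2 of 9 above 0 with a median of -0.29, and their list median was 0.16, 0.01 and 0.04 in WT and -0.14, -0.10 and -0.14 in HMGB2-KO, lower without overlap. The 3 erythrocyte genes measured lay below 0 with a median of -0.19, and their list median was 0.17, 0.22 and 0.07 in WT and 0.01, -0.04 and 0.04 in HMGB2-KO, again lower without overlap. Since the values carry no level, no marker of these cells can be called absent. Their part in the macrophage values was not tested.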

How the data were processed

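Of the deposited table, 22206 rows with 1 column per liver were used, and 0 columns were left unused. Its values, taken as log2 and running from -8.60 to 6.93, were read as deposited by the authors relative to a baseline per row. They lie on both sides of 0 in most rows, but above 0 on all 6 arrays in 992 rows and below 0 on all 6 in 1297. Log base, probe summarization, normalization and baseline are not given here by any label or header. Per the labels, RNA was extracted with Trizol and labelled with biotin. The platform annotation gave 1 gene symbol to 19572 rows, several to 0 and none to 2634. Where a gene had more than 1 row (55 genes), its highest row by mean was used, which leaves 19505 genes. Arrays were centred on their medians. The test was the two-sided moderated test of limma 3.58.1 (R 4.3.3) with genotype alone, adjusted by Benjamini-Hochberg over all genes.

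The members, lists and naming rule were chosen with earlier results of these data known. Named liver by liver were members without overlap of the genotypes, those with an unadjusted p under 0.05 and the smallest p of each role, and others for comparison, picked after their values were seen. On simulated data for HMGB2-KO against WT (19505 genes, 10 runs, 200 changed) the fit found 59.0% of 2-fold and 92.4% of 4-fold changes, with 4.51% false calls. Changes below 2-fold were not tested in this way, and the largest difference of a member was 1.33-fold. The shares found therefore do not apply to changes of the members' size. Only 3 arrays per group limit the precision. The alternatives tried were other scalings, spread models, array weights, a replicate block, livers 1 and 2 alone and leaving out each liver.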

Additional observations from a re-analysis of the deposited data

How the results depend on the processing

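Across 14 alternatives, 0 members and 0 genes passed the adjusted threshold, and the smallest adjusted p of a member was 0.863. Of the 35 members 28 kept their direction throughout. Some alternatives could not change a member's direction. The trended robust spread, the per-gene test and the replicate block leave fold changes as they are. Averaging the rows of a gene does too, as each member has a single row. With the values as deposited, which carry the offset of WT 2, the members' median was 0.028, 2 members lay wholly above WT (0.795% of all genes) and 3 wholly below (10.6%), and Adgre1 (-0.040), Marco (-0.030), Mertk (-0.028), Ctss (-0.022) and Lgals3 (-0.058) changed sign. In 15 of the 17 other gene lists the median fold change then moved by at least the SD of the list median within a genotype. Quantile normalization left 4 members wholly above (4.98% of all genes) and 0 below (4.83%). With livers numbered 1 and 2 alone, where fewer livers must be ordered, 12 lay above (14.8% of all genes) and 3 below (18%), and Tyrobp was at 0.086. At an unadjusted p under 0.05 stood 2 members (3.68% of all genes), against 1 with a trended robust spread (3.84%) and 4 with array weights (3.98%); the causes of these shifts were not tested.

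With 1 liver left out, the members' median lay between 0.11 (without HMGB2-KO 3) and 0.23 (without HMGB2-KO 2) and 25 to 28 members were above 0. Between 8 and 13 then lay wholly above WT (8.3% to 9.7% of all genes), 1 to 4 wholly below (9.62% to 12.1%), and 0 to 4 had an unadjusted p under 0.05, with 0 without HMGB2-KO 1 or HMGB2-KO 3. Over all genes that count ran from 601 to 945. Fewer livers make separation easier. Some members changed sign and lay between -0.0015 (without WT 1) and 0.18 (Mertk), -0.014 (without WT 1) and 0.24 (Ctss), -0.12 and 0.12 (Tyrobp, above 0 without WT 3 or HMGB2-KO 2), -0.066 and 0.16 (Lgals3, below 0 without WT 3 or HMGB2-KO 2) and -0.23 and 0.026 (Ms4a7, above 0 without HMGB2-KO 3).

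Livers of the 2 genotypes share replicate numbers. Deviations from the group means correlated at 0.04, 0.13 and 0.29 for numbers 1, 2 and 3, and at -0.21 to 0.10 between livers of different numbers. HMGB2-KO 1 correlated better with WT 2 (0.10) than with WT 1. The labels number the mice 38 and 39, 40 and 41, and 31 and 32, WT first, for replicates 1, 2 and 3. Whether these are pairs is not stated and was not tested, and the main fit took genotype alone. With the replicate number as a block 1 member, Cybb, had an unadjusted p under 0.05, and 858 genes did over the whole array. In this balanced design the block cannot change a fold change, so the members' median of 0.15 was fixed in advance.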
